A study of Homo sapiens with 6 samples.

Results

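The genes described here are *MYC*, its paralogs *MYCN* and *MYCL*, its partner *MAX*, 37 nucleolar genes of ribosome biogenesis and the polyamine synthesis genes *SRM* and *ODC1*. They are 43 of the 20347 gene symbols in the deposited expression table. Members were matched by gene symbol, and no threshold on measured values was part of the choice, although it was made with earlier results of these data known. All 43 were found, and 42 of them passed the filter on low values (a mean of 10 normalized counts) and were tested.

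RNA-seq was performed in PaTu8988t, an established human pancreatic ductal adenocarcinoma (PDAC) cell line. The Control group consisted of 3 replicates that received an unspecific control guide RNA, and the SAMD1 KO group of 3 independent clones made with guide RNAs against *SAMD1*, a gene for a CpG island-binding repressor, under puromycin selection. Each KO library is 1 clone, so that a difference between the groups and a difference between clones rest on the same 3 libraries. Nothing in the labels says whether the control replicates were separate cultures, and the p-values measure the spread between these libraries only. Clones 2 and 3 differed more from each other than control libraries did. The chi-square of their read counts per degree of freedom was 48.2, against 2.6 to 5.03 between control libraries. The test used below takes a common variance of both groups for each gene.

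MYC is a transcription factor that binds the DNA motif CACGTG (the E-box) as a dimer with MAX, and in cancer cells it is best known for driving growth genes, above all those that build ribosomes. Ribosome production starts in the nucleolus, where RNA polymerase I transcribes the ribosomal RNA precursor. Small nucleolar ribonucleoproteins (snoRNPs) then modify this precursor, and large assemblies of processing factors fold and cut it into the small and the large subunit.

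Library totals ran from 35589477 to 45172216 reads, and the members together held between 0.836% and 0.887% of the normalized counts of a library. At this depth counting error was small for all members but *MYCL*, *NOP2*, *PPAN* and *RRN3*, which had the lowest counts among the tested members. Bulk RNA cannot tell a smaller share of expressing cells from less RNA per cell. *SAMD1* itself (chromosome 19) had 2231, 2382 and 2299 normalized counts in the control libraries and 874, 1082 and 825 in clones 1 to 3, lower in every library labelled SAMD1 KO (log2 fold change −1.32, standard error 0.10, limma adjusted p = 0.000724). The epithelial keratin genes *KRT8* and *KRT18* had at least 29200.3 normalized counts in every library, while *KRT19* had no reads in any. Of the 4 tested epithelial markers (*KRT7*, *KRT8*, *KRT18* and *EPCAM*), 3 had a positive log2 fold change and 1 a negative one, of −0.065. *KRT7* rose from 30.2 ± 3.96 to 84.2 ± 6.31 (log2 fold change 1.46, limma adjusted p = 0.00392), and *KRT18* had a log2 fold change of 0.52 (adjusted p = 0.0598). Both were past the cut-off of the study, which is explained further on. The summed normalized counts of the 5 listed epithelial markers were 62681.3 to 65890.6 in the control libraries and 67616.9 to 108553.3 in the clones. The fibroblast genes *DCN* and *LUM* and the T-cell gene *CD3E* had no reads, and *PTPRC*, the general leukocyte marker, had at most 2.7 normalized counts. Of 15 listed markers of fibroblasts, leukocytes and endothelium, 7 were tested, and 0 passed the adjustment in limma. At p below 0.05, *COL3A1* was higher (log2 fold change 1.13) and *COL1A1* (−1.04), *CD68* (−0.31) and *CDH5* (−1.80) were lower. Without clone 1, 1 of the 15 passed the adjustment in edgeR (*CDH5*) and 1 in DESeq2 (*COL3A1*). The summed normalized counts of the 6 fibroblast markers were 163.8 to 166.3 in the control libraries and 148.4 to 443.2 in the clones, those of the 5 leukocyte markers 368.8 to 383.5 and 265.2 to 354.4, and those of the 4 endothelial markers 80.1 to 85.9 and 35.6 to 85.4. The part of these markers in the results was not tested.

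The promoters of the members with the smallest p in each direction are shown first, because the MYC motif and the GCGC motif that the study names for SAMD1 can be seen in them directly. They are RefSeq windows of 300 bases around the gene start (GRCh38.p14), of the 2 lower and the 2 higher members with the smallest p among those with a window in the table used. Capitals mark each CACGTG and each GCGC, overlapping copies included, and the 5′ end is on the left.
MYCL (chr1:39901868-39902167, minus strand): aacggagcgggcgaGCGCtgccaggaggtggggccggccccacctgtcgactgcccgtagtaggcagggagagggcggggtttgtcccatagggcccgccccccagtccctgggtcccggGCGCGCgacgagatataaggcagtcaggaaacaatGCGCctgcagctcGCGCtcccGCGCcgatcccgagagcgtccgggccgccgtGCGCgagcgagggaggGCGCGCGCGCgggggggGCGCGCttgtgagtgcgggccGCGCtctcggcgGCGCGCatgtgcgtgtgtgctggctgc
RRP9 (chr3:51941855-51942154, minus strand): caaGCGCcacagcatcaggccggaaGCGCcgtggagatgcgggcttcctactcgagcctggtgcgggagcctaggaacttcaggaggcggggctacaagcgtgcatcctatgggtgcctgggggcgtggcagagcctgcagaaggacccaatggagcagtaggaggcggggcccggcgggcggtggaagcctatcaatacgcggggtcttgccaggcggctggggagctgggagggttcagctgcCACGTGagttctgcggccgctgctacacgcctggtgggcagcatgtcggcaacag
WDR43 (chr2:28894417-28894716, plus strand): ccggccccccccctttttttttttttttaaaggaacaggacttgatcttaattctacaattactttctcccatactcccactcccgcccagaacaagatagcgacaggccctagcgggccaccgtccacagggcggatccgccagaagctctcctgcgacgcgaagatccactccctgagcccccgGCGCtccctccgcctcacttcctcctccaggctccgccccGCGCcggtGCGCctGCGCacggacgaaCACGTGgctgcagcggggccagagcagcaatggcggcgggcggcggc
NIP7 (chr16:69339522-69339821, plus strand): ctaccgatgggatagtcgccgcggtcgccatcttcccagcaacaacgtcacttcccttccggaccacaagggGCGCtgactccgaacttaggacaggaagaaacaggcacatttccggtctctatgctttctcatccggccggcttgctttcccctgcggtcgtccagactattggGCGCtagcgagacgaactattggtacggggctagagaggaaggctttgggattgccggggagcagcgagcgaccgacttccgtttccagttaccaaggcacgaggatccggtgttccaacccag
The *MYCL* window held 16 GCGC and 0 CACGTG. It lies wholly inside the GENCODE bounds of the gene, which are given below, so that the GENCODE start is outside this window. The *RRP9* window held 1 CACGTG and 2 GCGC, the *WDR43* window 1 and 4, and the *NIP7* window 0 and 2. Of the 43 members, 35 had at least 1 window in the table, 46 windows in all, and 18 of these windows (39.1%, each from a different gene) held CACGTG. Over all 35116 windows of the table the share was 7.26%, and over the windows of all tested genes 9.16%. Both motifs read the same on the other strand. GCGC was present in 84.8% of the member windows, with a mean of 4.15 copies, against 79.7% and 3.59 in the windows of all tested genes. SAMD1 or MYC binding was not analysed here, and a match is a description of the letters only.

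Groups were compared with limma after adding 1 normalized count and taking log2, and every log2 fold change is SAMD1 KO over control on this scale. The cut-off of the study asks for a change beyond 0.5 on the log2 scale with p below 0.01 before adjustment, and genes past it are termed called. All adjusted p-values come from the Benjamini-Hochberg method across the 12773 tested genes, and a gene is said below to have risen or fallen only if its adjusted p was below 0.05. With 3 libraries a group the smallest p of an exact permutation test is 0.1, so that limma, which moderates each gene's variance with that of the other genes, was used throughout.

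*MYC* transcript did not differ detectably after SAMD1 deletion, whereas its low paralog *MYCL* rose 3.45-fold and was the only member past the cut-off of the study. *MYC* had 9181, 9437 and 9163 normalized counts in the control libraries and 8982, 9956 and 9998 in SAMD1 KO clones 1 to 3 (chromosome 8, 127735434 to 127742951). The values of clone 1 lay below all control values and those of clones 2 and 3 above, so that the groups overlapped. The mean was 9260.0 ± 153 in the controls against 9646 ± 575 in the clones (mean ± SD of 3 libraries a group, log2 fold change 0.057, standard error 0.058, limma adjusted p = 0.554). The 95% interval of the log2 fold change ran from −0.079 to 0.19. *MAX* had 3205, 3084 and 3086 normalized counts in the control libraries and 2976, 2880.4 and 2965 in SAMD1 KO clones 1 to 3, and the clones were lower than every control library by a small margin (log2 fold change −0.088, standard error 0.049, limma adjusted p = 0.278).

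*MYCL* encodes L-MYC, which also pairs with MAX and binds the same DNA motif. *MYCL* had 33.2, 46 and 41.2 normalized counts in the control libraries and 115, 162 and 139 in SAMD1 KO clones 1 to 3 (chromosome 1, 39895428 to 39902256), with no overlap between the groups. It rose from 40.1 ± 6.48 to 139 ± 23.9 (mean ± SD of 3 libraries a group, log2 fold change 1.76, standard error 0.20, limma adjusted p = 0.00273), and the adjusted p stayed below 0.05 when each library was left out in turn. Its chromosomal neighbours did not move with it: the median log2 difference from control of the up to 40 tested genes around *MYCL* was −0.02, 0.024 and −0.028 in clones 1 to 3. Per kb of transcript, *MYCL* remained far below *MYC*. Control cells had 2489 normalized counts per kb of *MYC* and 11.4 of *MYCL*, and SAMD1 KO cells 2592 and 39.3, so that the level of *MYCL* was 0.458% of that of *MYC* in control and 1.52% in SAMD1 KO cells. *MYCN*, the neural paralog, had 1 read in 1 of the 6 libraries and was not tested.

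**Figure D1:**
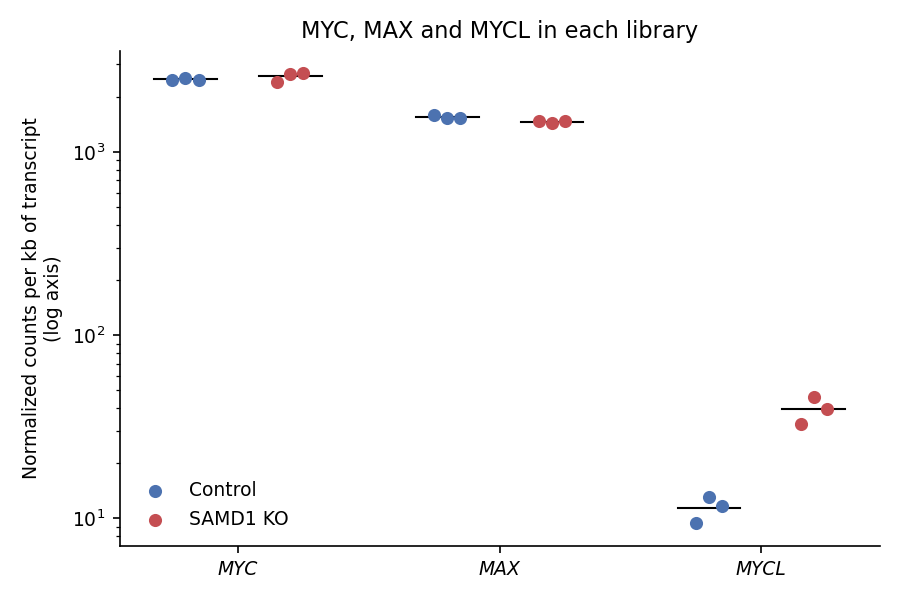
Normalized counts per kb of canonical transcript (log axis) of *MYC*, *MAX* and *MYCL* in each of the 3 control libraries and 3 SAMD1 KO clones, with points for libraries and bars for group means. The groups lie close together for *MYC* and *MAX*, while all 3 clones lie above all control libraries for *MYCL*.

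As a group, the members stayed close to the control level. Beside *MYCL*, each of the other 41 tested members differed less than 1.3-fold between the group means. At the cut-off of the study 1 of 42 tested members was called higher, against 5.77% of all tested genes, and 0 were called lower, against 2.08% (also 0 by edgeR and by DESeq2). At an unadjusted limma p below 0.05, 8 members were lower (13.5% of all tested genes were) and 2 were higher (16.1% of all). With an adjusted p below 0.05, 1 was lower (4.7% of all) and 1 higher (8.32% of all). The number of lower members at p below 0.05 depended on single libraries. It was 4 without control replicate 1, 5 without control replicate 2 or 3, and 13 without SAMD1 KO clone 1. The number of higher members was 1 without any one control replicate, 4 without clone 1 or clone 3, and 3 without clone 2. The shares of all tested genes at p below 0.05 in these runs are not given here. Calls over all tested genes at the cut-off of the study moved as well. They were 568 higher and 183 lower without control replicate 1, 862 and 346 without clone 1, and 737 and 266 with all 6 libraries. The groups did not overlap for 14 of the 42 members, 33.3%, while 37.8% of all tested genes did not overlap.

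The median log2 fold change was −0.046 over the members and −0.0059 over all tested genes, with 24 of 42 members below 0 (57.1%, against 51.2% of all genes). Without control replicate 3, the members' median was −0.019, and after rescaling to equal 75th percentiles it was −0.027. The set of all tested genes was not matched to the members in expression level. In the single clones the median log2 difference from the control mean over the members was −0.027, −0.053 and −0.072, and over all tested genes between −0.0036 and 0.00099. The control libraries themselves lay at 0.010, −0.018 and −0.00054 over the members. The value of clone 1 lay below all of them by a margin smaller than their range.

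**Figure D2:**
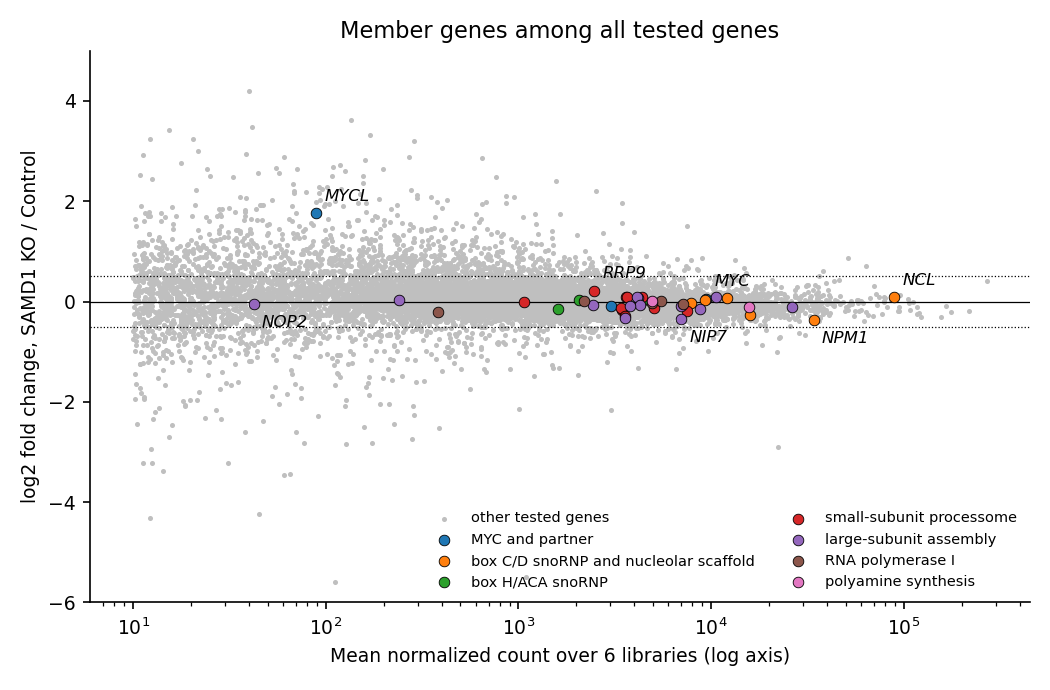
Mean normalized count over the 6 libraries (log axis) against the log2 fold change of SAMD1 KO over control for all 12773 tested genes in grey and the 42 tested members in the colour of their role. Dotted lines mark the fold-change cut-off of 0.5. Only *MYCL* lies outside them among the members.

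Among the box C/D snoRNP proteins and nucleolar scaffolds, 2 of 6 members were lower at p below 0.05, where 13.5% of all tested genes were. Neither of the 2 passed the adjustment in limma (*NOLC1* did in edgeR, and both in DESeq2, each run without clone 1). The shares of all tested genes with an adjusted p below 0.05 in the edgeR and DESeq2 runs are not given here. At the cut-off of the study, edgeR called 317 of all tested genes lower and DESeq2 329, against 266 in limma. Box C/D snoRNPs carry out methylation of ribosomal RNA, with fibrillarin (*FBL*) as the methyltransferase and *NOP56* and *NOP58* as core proteins. *NCL*, which encodes nucleolin, had the highest counts of all members, with 89020.0, 84786 and 85797 normalized counts in the control libraries and 95322, 85835 and 94288 in clones 1 to 3 (log2 fold change 0.084, standard error 0.071, limma adjusted p = 0.466). *NPM1*, encoding the nucleolar chaperone nucleophosmin, had 39246, 36879.5 and 38519 normalized counts in the control libraries and 34012, 22812 and 32968 in clones 1 to 3, so that all clones were below all control libraries and clone 2 was far below the others (log2 fold change −0.37, standard error 0.15, limma adjusted p = 0.14). Without clone 2 its log2 fold change was −0.19. Many annotated pseudogenes (49) carry the name of *NPM1*, and how the authors' counting treated reads shared with them is not given in the sources used here. *NOLC1*, a chaperone of snoRNPs also known as Nopp140, had 17686, 17184 and 17356 normalized counts in the control libraries and 15951, 13434 and 14353 in clones 1 to 3. Each clone was lower than each control library, and the adjusted p lay just above the threshold (log2 fold change −0.26, standard error 0.07, limma adjusted p = 0.0525). *FBL*, *NOP56* and *NOP58* had log2 fold changes of 0.04, 0.067 and −0.024 with overlapping groups. *NOP56* and *FBL* varied between the clones. *NOP56* had 14356, 12462 and 10288 normalized counts and *FBL* 9239.6, 7968 and 11229.8 in clones 1 to 3.

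The box H/ACA snoRNPs, which convert uridines of ribosomal RNA to pseudouridine, were represented by *GAR1*, *NHP2* and *NOP10*, and 0 of the 3 had a limma p below 0.05 (also 0 with an adjusted p below 0.05 by edgeR and DESeq2). At a limma p below 0.05, 13.5% of all tested genes were lower and 16.1% higher, so that 0 of 3 says little. The smallest p was that of *GAR1*, with 1675, 1610.5 and 1793 normalized counts in the control libraries and 1615, 1488 and 1466 in clones 1 to 3 (log2 fold change −0.15, standard error 0.07, limma adjusted p = 0.194). *NOP10* had the highest counts, with 4351 ± 255 in the controls against 4382 ± 168 in the clones (mean ± SD of 3 libraries a group, log2 fold change 0.011, adjusted p = 0.928).

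The small-subunit processome, the assembly that matures the small-subunit RNA, was the only group of members besides the MYC genes in which a gene passed the adjustment in limma. *WDR43*, an early-assembling subunit of the processome also known as UTP5, fell, with 8026, 7951 and 7945 normalized counts in the control libraries and 6761, 7174 and 7043 in clones 1 to 3 (log2 fold change −0.19, standard error 0.047, limma adjusted p = 0.0408). Its highest clone was 7174 and its lowest control library 7945, and the fall was to 0.877 of the control level. The adjusted p was 0.186, 0.149 and 0.161 when control replicate 1, 2 or 3 was left out, and 0.0714 after rescaling to equal 75th percentiles, and 0.054 with no filter on low values. *DDX10*, a DEAD-box RNA helicase, had 3949, 3856 and 3987 normalized counts in the control libraries and 3055, 3045 and 3633 in clones 1 to 3 (log2 fold change −0.28, standard error 0.077, limma adjusted p = 0.0556). *NOL6*, a processome scaffold subunit, had 3742, 3679 and 3541 normalized counts in the control libraries and 3283, 3368 and 3115 in clones 1 to 3 (log2 fold change −0.17, standard error 0.054, limma adjusted p = 0.089). In both genes the clones lay below the control libraries, with clone 3 the nearest to them for *DDX10* and the farthest for *NOL6*. *RRP9*, the U3 snoRNA-binding protein, was the only nucleolar member with a higher value at p below 0.05. It had 2322, 2272 and 2233 normalized counts in the control libraries and 2755, 2888 and 2336 in clones 1 to 3 (log2 fold change 0.22, standard error 0.084, limma adjusted p = 0.134). Clone 3 lay close to the control libraries. The other 6 processome members had log2 fold changes from −0.12 (*NOP14*) to 0.10 (*RRP12*) and p-values of 0.0907 or more, although *NOP14* was lower with an adjusted p below 0.05 in edgeR and DESeq2 without clone 1.

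Among the 13 members that assemble the large subunit, 9 had a negative log2 fold change. At p below 0.05, 3 were lower and 0 higher, against 13.5% and 16.1% of all tested genes. In limma 0 passed the adjustment in either direction (0 by edgeR, and 2 lower by DESeq2, *NIP7* and *NOP16*, each without clone 1). For the edgeR and DESeq2 runs the shares of all tested genes are not given here. Those lower at p below 0.05 were *NIP7*, *DDX18* and *NOP16*. *NIP7*, a factor of pre-ribosomal RNA processing, had 7935, 7547 and 8040.1 normalized counts in the control libraries and 6028, 5454 and 7077 in clones 1 to 3 (log2 fold change −0.35, standard error 0.094, limma adjusted p = 0.0516). The clones were all below the control libraries, with clone 3 nearest. *DDX18*, a DEAD-box helicase, had 9276, 8974 and 9457 normalized counts in the control libraries and 8422, 7987 and 8483 in clones 1 to 3 (log2 fold change −0.15, standard error 0.051, limma adjusted p = 0.0896). *NOP16* had 4012, 3903 and 3913 normalized counts in the control libraries and 3642, 2547 and 3364 in clones 1 to 3, and as for *NPM1* the lowest value was that of clone 2 (log2 fold change −0.32, standard error 0.12, limma adjusted p = 0.134). Without clone 2 its log2 fold change was −0.17. The helicase gene *DDX21* had the highest counts of the group, 27293 ± 538 in the controls against 25385 ± 1233 in the clones (mean ± SD of 3 libraries a group, log2 fold change −0.11, adjusted p = 0.264). The 3 subunits of the PeBoW complex, *PES1*, *BOP1* and *WDR12*, had log2 fold changes of 0.074, −0.081 and 0.085, with p-values of 0.2 or more. *NOP2* and *PPAN* were counted far below the other members of this group. *NOP2* had 31.1 to 54.9 normalized counts and *PPAN* 205.9 to 305. Of the annotated exon bases of *NOP2*, 54.4% are shared with another protein-coding gene on the same strand, and 47.6% of those of *PPAN* with the readthrough gene *PPAN-P2RY11*, which had no reads in any library. The levels of these 2 genes are therefore uncertain, and the part of the overlap in them was not tested. Genes on the opposite strand share 28% of the exon bases of *NHP2* (*RMND5B*), 20.7% of *NOP14* (*NOP14-AS1*), 18.4% of *NIP7* (*COG8*), 13.1% of *MAX* (*FNTB*) and 12.3% of *NOP16* (*ARL10*). Reads of such stretches can be told apart only where strand was used in counting, which is not given in the sources used here.

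RNA polymerase I and its factors did not differ detectably. *POLR1A*, *POLR1B* and *POLR1C* encode subunits of the polymerase, *UBTF* the upstream binding factor and *RRN3* the initiation factor TIF-IA, and 0 of the 5 genes had a limma p below 0.05 (also 0 with an adjusted p below 0.05 by edgeR and DESeq2). Of all tested genes, 13.5% were lower and 16.1% higher at a limma p below 0.05, so that 0 of so few genes says little. *POLR1A*, the largest subunit, had 5486 ± 130.0 in the controls against 5558 ± 88.1 in the clones (mean ± SD of 3 libraries a group), and its log2 fold change was 0.019 with a 95% interval from −0.091 to 0.13. *UBTF* had 7273, 7322 and 7062 normalized counts in the control libraries and 7361, 7595 and 6027 in clones 1 to 3, with the lowest value in clone 3 (log2 fold change −0.053, standard error 0.089, limma adjusted p = 0.735). *RRN3* had the smallest p of the group, with 448, 409 and 367 normalized counts in the control libraries and 376, 349 and 337 in clones 1 to 3 (log2 fold change −0.20, standard error 0.11, limma adjusted p = 0.258). The 95% interval of its log2 fold change ran from −0.45 to 0.051. The polyamine enzymes are established MYC targets outside the nucleolus. *ODC1*, which makes putrescine from ornithine, had 16259 ± 625 in the controls against 15108 ± 1274 in the clones (log2 fold change −0.11, adjusted p = 0.363), and *SRM*, spermidine synthase, 4885 ± 40.6 in the controls against 4972 ± 522 in the clones (mean ± SD of 3 libraries a group, and a log2 fold change of 0.02, adjusted p = 0.892).

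**Figure D3:**
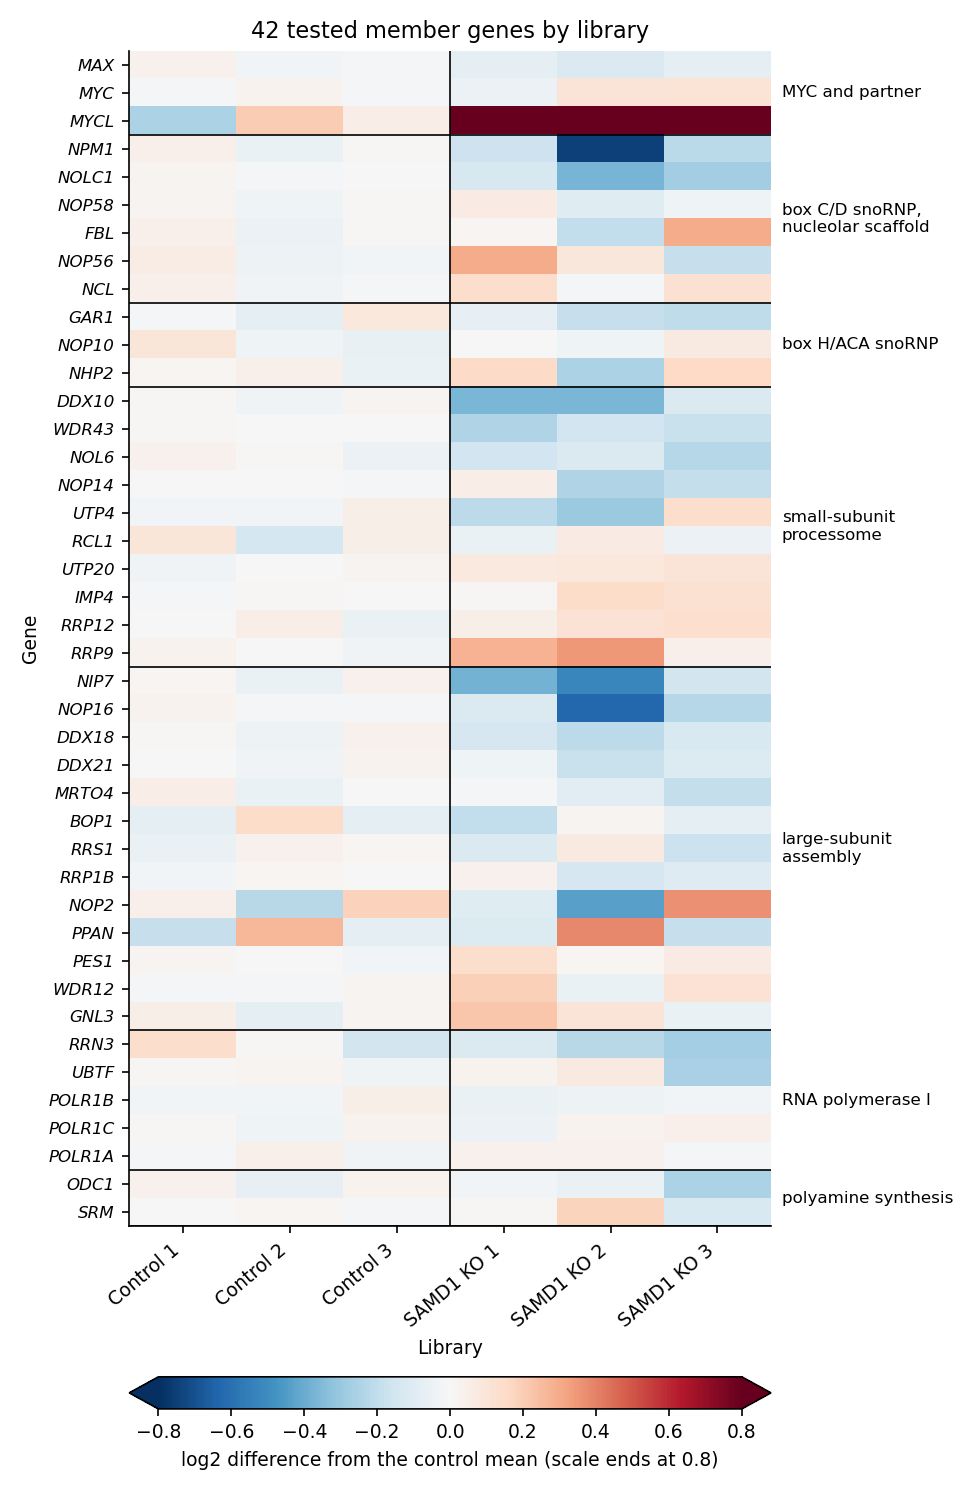
log2 difference from the control mean for the 42 tested members (rows, grouped by role) in each of the 6 libraries (columns). Blue is lower and red higher than the control mean, and the colour scale ends at 0.8, which all 3 clones exceed for *MYCL*. The blue fields of *NPM1* and *NOP16* are deepest in SAMD1 KO clone 2.

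The clones differed from each other in members that lie in the same part of a chromosome. *NPM1*, *NOP16* and *NHP2* are the 3 members on chromosome 5, and their log2 differences from control in clone 2 were −0.74, −0.63 and −0.25. The tested genes next to them, up to 20 on each side, had median differences of −0.54, −0.36 and −0.33 in that clone. In clones 1 and 3 the same neighbours lay between −0.081 and −0.039. After the median of the neighbours was subtracted in each clone, *NPM1* had a log2 fold change of −0.14 (adjusted p = 0.124) and *NOP16* of −0.16 (adjusted p = 0.129).

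On chromosome 3, *RRP9* had log2 differences of 0.28, 0.34 and 0.038 in clones 1 to 3 and its neighbours 0.27, 0.34 and 0.038, and after subtraction its log2 fold change was 0.0025 (adjusted p = 0.978). *NOP56* on chromosome 20 had 0.29, 0.091 and −0.19, and its neighbours 0.33, 0.28 and −0.069. Over the 41 tested members other than *MYCL*, the correlation (Pearson's r) between a member's difference and that of its neighbours was 0.699 in clone 1, 0.656 in clone 2 and 0.303 in clone 3. With *MYCL* included, over 42 members, the correlation was lower, at 0.327, 0.405 and 0.0799 in clones 1 to 3. These points share libraries and, in part, neighbours, and are given as a description. Copy number was not measured here, and its part in these differences was not tested.

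The other 6 members that were lower at p below 0.05 also had a negative log2 fold change after subtraction, which was tried as an alternative. *WDR43* had a log2 fold change of −0.26 (adjusted p = 0.00848), *DDX18* of −0.25 (adjusted p = 0.00965), *NOLC1* of −0.27 (adjusted p = 0.0283) and *NIP7* of −0.26 (adjusted p = 0.0339), while *DDX10* (−0.21) and *NOL6* (−0.13) did not pass the adjustment. With it the median of the members moved to −0.069, and the numbers at p below 0.05 to 10 lower and 4 higher. The shares of all tested genes at p below 0.05 after subtraction are not given here. At the cut-off of the study, 765 of all tested genes were called higher and 284 lower after subtraction.

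**Figure D4:**
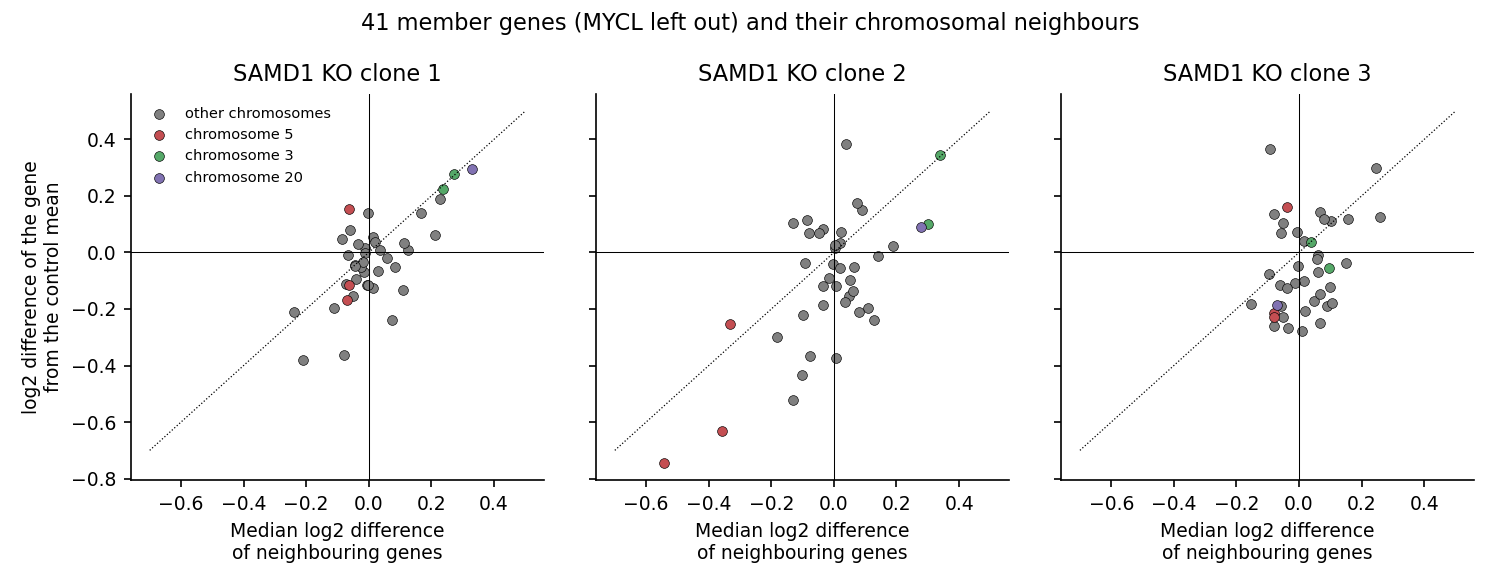
For each SAMD1 KO clone, the log2 difference of 41 members (*MYCL* left out) from the control mean against the median difference of the tested genes around them, with members on chromosomes 5, 3 and 20 in colour and a dotted line of equal values. Chromosome 5 members lie at the lower left in clone 2, and chromosome 3 members at the upper right in clones 1 and 2.

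The other genes of these pathways were taken from 7 lists chosen by textbook role, with earlier results of these data known. They held 150 genes, of which 148 were tested. The factors of the small and large subunit leaned to lower values in SAMD1 KO cells. Of 84 tested factors outside the members, 70 had a negative log2 fold change (83.3%, against 51.2% of all tested genes), with a median of −0.093. The set of all tested genes was not matched to these factors in expression level. Whether other genes of similar expression level leaned lower to the same extent was not tested, so that the lean cannot be assigned to these factors in particular. The same limit holds for the shares of all tested genes given below. At an unadjusted limma p below 0.05, 20 were lower (23.8%, against 13.5% of all tested genes) and 1 higher (16.1% of all). With an adjusted p below 0.05 in limma, 5 fell (*IMP3*, *BMS1*, *DHX33*, *PNO1* and *GTPBP4*) and 1 rose, where 4.7% and 8.32% of all tested genes were lower and higher. Without clone 1, 12 were lower and 1 higher in edgeR, and 15 were lower and 1 higher in DESeq2. The shares of all tested genes at an adjusted p below 0.05 in these 2 runs are not given here or below. At the cut-off of the study, edgeR called 904 of all tested genes higher and 317 lower, and DESeq2 897 and 329. Limma on 6 libraries called 737 and 266. Of the 84 factors, 0 reached that cut-off in limma, where 5.77% of all tested genes were called higher and 2.08% lower.

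*IMP3*, a U3 snoRNP protein of the processome, fell most clearly, with 2101, 2161 and 2082 normalized counts in the control libraries and 1683, 1535 and 1574 in clones 1 to 3 (log2 fold change −0.41, standard error 0.06, limma adjusted p = 0.00649). The clones lay below every control library, and leaving out any 1 library kept the adjusted p below 0.05. *GTPBP4*, a GTPase of the large-subunit pathway, fell from 9894 ± 313 to 8286 ± 371 (mean ± SD of 3 libraries a group, limma adjusted p = 0.0253). *DHX33* (log2 fold change −0.21, adjusted p = 0.0351) and *PNO1* (log2 fold change −0.22, adjusted p = 0.0407) fell as well. These 3 genes lost the adjusted p of 0.05 without control replicate 1, 2 or 3, at 0.0757 to 0.169. *DHX33* also lost it without clone 2 (0.0501), with equal 75th percentiles (0.0549) and after subtraction of the neighbours (0.0605), and *PNO1* without clone 2 (0.0623), without clone 3 (0.0511) and with no filter (0.0503). *RPF2*, a partner of the 5S RNP, had a log2 fold change of −0.19 (adjusted p = 0.057). *GNL3L*, a relative of the member *GNL3* on chromosome X, was the only one that rose (from 3225 ± 153 to 3937 ± 266, mean ± SD of 3 libraries a group, limma adjusted p = 0.0363), and its neighbours were higher by 0.32, 0.31 and 0.30 in the 3 clones. After subtraction its log2 fold change was −0.023. Its adjusted p was 0.13, 0.148 and 0.112 without control replicate 1, 2 or 3 and 0.059 without clone 3.

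In the MYC network, 2 of 13 other factors fell and 0 rose with an adjusted p below 0.05 in limma, where 4.7% and 8.32% of all tested genes did. Without clone 1, 1 was lower and 0 were higher in edgeR, and 2 were lower and 2 higher in DESeq2. *MLX*, the partner of the MXD and MondoA proteins, fell from 2143 ± 24.6 to 1815 ± 95.8 (mean ± SD of 3 libraries a group, log2 fold change −0.24, limma adjusted p = 0.0401), and *MLXIP*, which encodes MondoA, from 4067 ± 70.3 to 3424 ± 258 (log2 fold change −0.25, limma adjusted p = 0.0466). Without control replicate 1, 2 or 3 their adjusted p-values lay from 0.147 to 0.18, and without clone 2 they were 0.065 and 0.0665. That of *MLXIP* was 0.0658 without clone 3 and 0.0539 with no filter, and that of *MLX* was 0.0583 with equal 75th percentiles, 0.144 after subtraction of the neighbours and 0.057 in edgeR without clone 1. *MXD1*, an antagonist of MYC that also binds MAX, had 1048, 1077 and 1016 normalized counts in the control libraries and 832, 839 and 987 in clones 1 to 3 (log2 fold change −0.25, adjusted p = 0.109).

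At a limma p below 0.05, 13.5% of all tested genes were lower and 16.1% higher. Of the other snoRNP genes, 3 of 14 were lower (21.4%) and 0 higher at that p. Those lower were *NOP9* (log2 fold change −0.20), *ZNHIT6* (−0.21) and *SNU13* (−0.15), and 0 of the 14 passed the adjustment in limma. Without clone 1, 3 were lower with an adjusted p below 0.05 in edgeR, and 5 were lower and 1 higher in DESeq2. The other RNA polymerase I components had 2 of 16 lower (12.5%, near the share of all tested genes) and 0 higher at p below 0.05. The 2 were *POLR1F* (log2 fold change −0.16) and *TAF1C* (−0.24), followed by *TAF1A* (−0.24). None of the 16 passed the adjustment in limma, or in edgeR and DESeq2 without clone 1.

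Of 11 other tested polyamine genes, 3 were lower and 2 higher at p below 0.05, against 13.5% and 16.1% of all tested genes. Only *AMD1* passed the adjustment in limma. *AMD1*, which supplies the aminopropyl groups for spermidine and spermine, fell, with 7063, 6788 and 7331 normalized counts in the control libraries and 5929, 5973 and 5618 in clones 1 to 3 (log2 fold change −0.27, standard error 0.054, limma adjusted p = 0.0183). All clones lay below all control libraries. Its adjusted p was 0.104, 0.0603 and 0.106 without control replicate 1, 2 or 3, and 0.135 after subtraction of the neighbours. *OAZ1*, the antizyme that inhibits ODC1, had a log2 fold change of −0.20 (adjusted p = 0.0553), and *SMOX*, spermine oxidase, one of 0.50 (adjusted p = 0.0708). Nucleolar stress is the response to failing ribosome production. Of its 10 listed genes, 0 passed the adjustment in limma, and 2 were higher at p below 0.05, where 16.1% of all tested genes were. The median log2 fold change of the 10 was −0.0021, and 5 of them lay below 0. Without clone 1, 4 were higher with an adjusted p below 0.05 in edgeR and in DESeq2, among them *GDF15* and *BBC3*. The share of all tested genes in these 2 runs is not given here. *GDF15*, a stress-responsive cytokine gene, had 53.8, 66.5 and 59.6 normalized counts in the control libraries and 76.1, 165 and 144 in clones 1 to 3 (log2 fold change 1.02, adjusted p = 0.0633) and passed the cut-off of the study, which uses the unadjusted p. Clone 1 lay nearer to the control libraries than clones 2 and 3, and its limma adjusted p was 0.00433 without clone 1 and 0.038 after subtraction of the neighbours. *BBC3*, which encodes the pro-apoptotic protein PUMA, had 276, 295 and 216 normalized counts in the control libraries and 289.7, 417 and 423 in clones 1 to 3 (log2 fold change 0.51, adjusted p = 0.12).

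**Figure D5:**
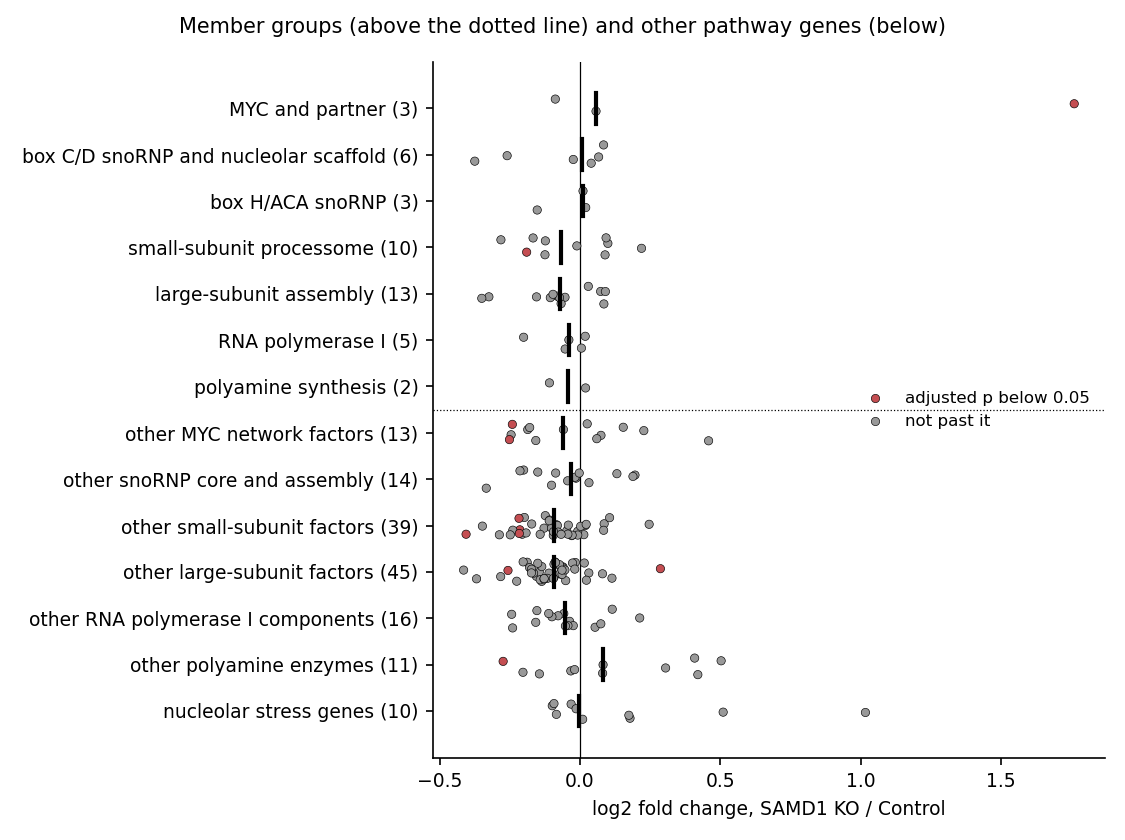
log2 fold changes of SAMD1 KO over control for each tested gene of the 7 member groups and of the 7 lists of other pathway genes, with the number of tested genes in brackets, a black bar at the median and genes with an adjusted p below 0.05 in red. The lists of small-subunit and large-subunit factors have medians of −0.094 and −0.093, and *MYCL* is the point at the far right.

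Among the 34 tested members with a RefSeq promoter window, the 18 with CACGTG in a window had a median log2 fold change of −0.032 (range −0.19 to 0.22), with 2 lower and 1 higher at p below 0.05. The 16 without it had a median of −0.017 (range −0.37 to 1.76), with 4 lower and 1 higher. Both sets held members on either side of 0, as the windows shown above do for *RRP9* and *WDR43*, which hold 1 CACGTG each and had log2 fold changes of 0.22 and −0.19.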

How the data were processed

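RNA-seq libraries of 3 control and 3 SAMD1 KO samples were prepared from total RNA with a stranded mRNA kit. Reads were mapped to human transcripts by the authors with RNA-STAR and counted per gene (featureCounts and hg38 are named in the submitters' processing notes) and the counts were divided by 1 DESeq2 size factor per library. The deposited signal is therefore a normalized count. The strand setting of the counting is not given in the sources used here. Every library's values (100%) lay within 0.1 reads of a multiple of 1 step, and dividing by the step gave the library totals. A further deposited table holds the authors' own comparison and was not used. No sample column was left unused (0 columns).

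The main test was limma 3.58.1 (R 4.3.3, functions lmFit and eBayes, trend on) on log2(normalized count + 1) for genes with a mean of at least 10, without a replicate block. Positions and transcript lengths were taken from GENCODE 44 (GRCh38). Named were *SAMD1*, the MYC genes and *MAX*, members with a limma p below 0.05, the members with the smallest p and with the highest counts in each role group, members left untested, and up to 3 genes with the smallest p in each pathway list, of which 1 is not reported here. *FBL*, *NOP56*, *NOP58*, *NHP2*, *NOP14*, *RRP12*, *PES1*, *BOP1*, *WDR12*, *POLR1A*, *POLR1B*, *POLR1C*, *SRM*, *NOP2*, *PPAN*, *GNL3*, *BMS1* and the cell type markers were named in addition, to complete complexes or after their values were seen. Members and lists were chosen with earlier results of these data known. The alternatives were another pseudocount, filter, scaling or cut-off, a replicate block, leaving out each library, subtracting the median of neighbouring genes, and edgeR 4.0.16 and DESeq2 1.42.0. These count tests used the reads of 5 libraries, since the step of SAMD1 KO clone 1 is so near 1 that the recovery of whole reads, and with it the total of this library, could be checked less strictly. The fits were tested on simulated data. Other steps used Python 3.11.15 with pandas 2.3.3, numpy 2.4.6 and scipy 1.17.1.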

Additional observations from a re-analysis of the deposited data

How the results depend on the processing

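The call of *MYCL* as the only member past the cut-off of the study held under every alternative run that used the fold-change cut-off, and *MYC* stayed above an adjusted p of 0.05 in all of them. With an adjusted p below 0.05 in place of the cut-off, 600 of all tested genes and 1 member (*WDR43*) were lower. Leaving out 1 library gave 568 to 904 genes called higher and 180 to 370 lower over all tested genes (count tests without clone 1 included), 4 to 13 members lower and 1 to 4 higher at p below 0.05, and member medians from −0.0495 to −0.0186. Subtracting the median of neighbouring genes gave 4 members higher at p below 0.05 and a median of −0.0694, and turned the log2 fold change of *NCL* to −0.105 and that of *GNL3L* to −0.0234. Leaving out 1 library gave log2 fold changes from −0.0192 to 0.0585 for *NOP10*, negative without control replicate 2, control replicate 3 or clone 3, and from −0.116 to 0.0509 for *UBTF*, positive without clone 3. The cause was not tested. Of 656 values for 41 named genes under the alternatives, 562 kept direction and side of an adjusted p of 0.05, 47 no longer passed it, 41 newly passed it and 6 changed direction.

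Same-numbered libraries of the groups did not pair: their deviations correlated at 0.039, 0.134 and 0.032. With the replicate number as a block, 725 genes were called higher and 259 lower, 1 member higher and 0 lower, and 8 members were lower and 2 higher at p below 0.05. Of the named genes, 6 no longer passed an adjusted p of 0.05 with the block (*AMD1* 0.0534, *DHX33* 0.0673, *MLX* 0.0751, *MLXIP* 0.0756, *PNO1* 0.0846 and *WDR43* 0.0897), and 2 newly passed it (*NIP7* 0.0417 and *GDF15* 0.0488). The trimmed mean scaling and the count tests on 5 libraries were added after the data were examined. So was the removal of 3 members that share exons with protein-coding genes on the same strand (*NOP2*, *RRS1* and *PPAN*). edgeR and DESeq2 on all 6 libraries and edgeR's weighted scaling were left out. The members' log2 fold changes had a median standard error of 0.072, which limits what could be resolved for single genes.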
